A study of Mus musculus with 35 samples.

Results

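Autophagy and lysosome genes were followed in podocytes that carry a mutated copy of Lmx1b and in podocytes of control mice. The set holds 46 of the 33292 genes in the table and is a list of gene symbols, set by function and with no threshold on a measured value, though drawn up with earlier results of these data known: 24 genes of the lysosome, 3 MiT/TFE transcription factors and 19 genes of autophagy. Podocytes are the epithelial cells that wrap the glomerular capillaries of the kidney, and Lmx1b encodes a LIM homeodomain transcription factor that they require. The measurement was mRNA sequencing of podocytes that were collected by FACS after digestion of glomeruli, with 1 library per mouse.

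Each of the 35 mice carried a doxycycline-dependent transactivator (rtTA) that is made in podocytes, a tetO::Cre cassette and a reporter that turns to membrane-bound EGFP in cells with Cre activity. Doxycycline at 2 mg/ml was in the drinking water for 7 days, so the floxed Lmx1b allele was removed in the podocytes of all groups, the control group included. Control mice, labelled WT, were taken as Lmx1b +/lox and keep 1 intact allele after Cre activity. Podocytes of Lmx1b H77L/lox mice keep only an allele with an exchange in the LIM-A domain, and those of Lmx1b C118F/lox mice only an allele with an exchange in the LIM-B domain. These are called H77L and C118F mice from here on. Mice were 7 to 10 weeks old and received the proteasome inhibitor bortezomib (Btz) at 0.3 μg/g body weight every other day or its solvent DMSO. The 6 groups held 6 mice each, apart from 5 C118F mice under bortezomib.

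Podocytes do not divide and break down proteins by the proteasome and by the lysosome, and they are known for a high rate of autophagy at rest. In autophagy, the ULK1 complex and Beclin 1 start a membrane sac, a ubiquitin-like conjugation system attaches ATG8 proteins (LC3 and GABARAP) to its lipids, receptors hook cargo to these ATG8 proteins, and the sealed vesicle fuses with a lysosome. The lysosome is acidified by a proton pump, the V-ATPase, and holds cathepsins and other hydrolases. Many lysosomal genes carry the palindrome TCACGTGA or its core CACGTG near their start, to which TFEB, TFE3 and MITF bind.

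These elements are shown first, because the promoters are what the members could share beyond their function. In the 300 bases from 250 before to 50 after the annotated start (GRCm39, GENCODE annotation, 1 start per gene), CACGTG was found in 10 of 46 members (21.7%), against 7.85% of 21636 protein-coding genes in the table and 10.6% of 10251 tested under DMSO in both lines. TCACGTGA, which contains CACGTG, was found in 3 of 46 members (6.52%), against 1.11% and 1.89%, and the 3 were Ctsb, Gla and Mcoln1. Of 202 other genes of the pathway, which are counted further below, 18.3% had CACGTG and 7.43% had TCACGTGA. The shares are therefore not particular to the members. Of the 10 members with CACGTG, Mcoln1, called in neither line under DMSO, and Atp6v1a, called higher in both, are not printed below. Both words read the same on either strand. The windows of 30 bases below run 5′ to 3′ on the strand of the gene, with CACGTG or TCACGTGA in capitals, and were picked after the values were known to show members called higher in both lines under DMSO (Lamp1, Ctsb, Ctsd, Cstb), in the H77L line alone (Gaa), in neither line (Gla, Gabarap) and lower in both (Atg5).
Lamp1 at chr8:13209088-13209117 (+): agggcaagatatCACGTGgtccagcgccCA
Lamp1 at chr8:13209134-13209163 (+): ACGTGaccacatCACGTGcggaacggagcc
Ctsb at chr14:63359879-63359908 (+): gcggtcaagcaTCACGTGAcgaatcagccc
Ctsd at chr7:141941792-141941821 (-): tcttccttccccCACGTGacctgtatccag
Cstb at chr10:78261494-78261523 (+): ccgtcgctctgtCACGTGctacgggtccgg
Gaa at chr11:119158637-119158666 (+): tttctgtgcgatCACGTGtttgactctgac
Gla at chrX:133501964-133501993 (-): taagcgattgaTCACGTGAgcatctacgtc
Gla at chrX:133501931-133501960 (-): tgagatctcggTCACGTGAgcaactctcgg
Gabarap at chr11:69881834-69881863 (+): ttcgccacccgcCACGTGattctccgccct
Atg5 at chr10:44144309-44144338 (+): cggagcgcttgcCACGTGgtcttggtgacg
Lamp1 has 4 such cores in its window, whose capitals at the edges belong to the neighbouring cores, and Gla has 2 copies of the full palindrome. No CACGTG lies in the windows of Hexa, Grn, Atp6ap2 and Tfe3, which rose as well. A match of letters is a description and does not show that a factor was bound.

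In control podocytes under DMSO, members were among well-detected transcripts. Levels are in TPM, in which each library has the same total and reads are corrected for gene length, so levels of different genes can be set side by side. The median over mice lay above 100 TPM in 28 members and below 10 TPM in 5. Lamp1, a glycoprotein of the lysosomal membrane, was highest at 1099 TPM (median), followed by Gabarap at 887 TPM, the proton pump subunit Atp6ap1 at 813 TPM, Ctsl at 778 TPM and Psap at 635 TPM. The neighbours in this order overlapped: Gabarap ran from 722 to 1039 TPM and Atp6ap1 from 690.1 to 868 TPM. At the low end stood Mitf with 6.46 TPM, Wipi1 with 6.93 TPM and Ctss with 1.39 TPM.

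The cells carried podocyte transcripts in every group. The summed TPM of 14 podocyte markers was 12840 to 18756 in control mice under DMSO, 6270 to 9130 in H77L mice and 3313 to 9137 in C118F mice. Of these markers 3 were called higher and 8 lower in H77L mice and 1 and 8 in C118F mice: Synpo had medians of 2409, 631 and 501 TPM and Actn4 of 842, 1879 and 1800 TPM. Sums of 15 macrophage and monocyte markers were 5.17 to 549 TPM, 10.1 to 37.9 TPM and 8.16 to 48.4 TPM in these groups, and the highest belonged to control replicate 1. Of the 2 tested, 1 was called higher in each line, and 1 was called lower in C118F mice. Csf1r had medians of 3.67, 10.8 and 8.33 TPM and Lyz2 of 12.2, 0.223 and 0.452 TPM. Sums of 15 lymphocyte and neutrophil markers stayed at or below 8.51 TPM in all 6 groups. Sums of 10 mesangial markers were 40.1 to 184 TPM in control mice, 600.3 to 979 TPM in H77L mice and 633 to 3247 TPM in C118F mice, and 3 of the 5 tested, Des, Pdgfrb and Cspg4, were called higher in each line. Medians of Des were 29.9, 478 and 556 TPM and those of Pdgfrb 13.3, 196 and 125 TPM. Acta2, which was not called, had rising medians of 3.79, 15.3 and 41.6 TPM with overlapping ranges. Itga8, Gata3, Rgs5 and Notch3 had medians under 1 TPM in all 3 groups and Agtr1a had 2.39, 1.74 and 1.49 TPM. The highest sum belonged to C118F replicate 1, in which the renin gene Ren1 reached 2166 TPM. Sums of 12 endothelial markers were 17.3 to 96.9 TPM in control mice, 14.7 to 40.9 TPM in H77L mice and 18.7 to 233 TPM in C118F mice. The highest endothelial sum again belonged to C118F replicate 1, which also had the lowest podocyte sum, 3313 TPM. Sums of 6 parietal cell markers were 64.2 to 82.8 TPM in control mice, 171 to 342 TPM in H77L mice and 124 to 231 TPM in C118F mice. Both lines were above control mice, and 3 of the 4 markers tested were called higher in each line. Medians of Cldn1 were 24, 93.1 and 77.3 TPM, of Akap12 12.5, 55.7 and 31.9 TPM and of Pax8 12.6, 27.2 and 25.7 TPM. Ncam1 had 22.3, 26.7 and 21.4 TPM, and Pax2 and Cdh6 had medians under 1 TPM in all 3 groups. Sums of 14 tubule markers had a higher median in control mice (97.5 TPM) than in H77L mice (17.5 TPM) and C118F mice (27 TPM). They reached 1955 TPM in control replicate 2 and overlapped between the groups. Of the 4 tested in the H77L line 1 was called higher and 0 lower, and of the 3 tested in the C118F line 0 were called. Estimated depth ran from 5267726 to 24143990 reads per mouse, and the next lowest was 14034920. Lmx1b itself was at 44.8 to 89.7 TPM in control mice, at 89.9 to 139 TPM in H77L mice, all above control mice, and at 37.4 to 185 TPM in C118F mice under DMSO; an amino acid exchange leaves its mRNA countable, so its level does not check the genotype.

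The first question was how the members differ between mutant and control podocytes without bortezomib. In H77L mice under DMSO, 21 of 45 tested members were higher than in control mice (46.7%) and 5 were lower (11.1%), where 22.4% of all 10964 genes tested were higher and 22.4% were lower. In C118F mice, 19 of 45 members were higher (42.2%) and 3 were lower (6.67%), where 13.7% of 10899 genes were higher and 16.6% were lower. A gene is called here at an adjusted p under 0.05 in limma on log2(TPM + 1), with the Benjamini-Hochberg adjustment over all genes tested. The median difference of the members was 0.25 and 0.29 on this log2 scale, against -0.01 and -0.06 over all genes. Without overlap between the mice, 16 of 45 members were higher and 1 lower in the H77L line. Of all genes tested, 11% were higher and 10.1% lower in this way. In the C118F line 13 members were higher and 0 lower without overlap, where 6.48% and 7.18% of all genes were. Both comparisons use the same control mice. In these bulk samples, a change in the RNA per podocyte and a change in the mix of sorted cells cannot be told apart, and the part of the marker sums above in these results was not tested.

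The rises were mostly in lysosomal genes. Summed over the 24 lysosomal members, levels were 6248, 7205 and 7873 TPM (lowest, median and highest mouse) in control mice under DMSO, 8988, 9557 and 11387 TPM in H77L mice and 8959, 11032 and 11557 TPM in C118F mice. No mutant mouse fell into the range of the control mice. Summed over the 19 autophagy members, levels were 2880, 3051 and 3368 TPM, 2984, 3014 and 3355 TPM, and 3212, 3373 and 3760 TPM in the same order, with overlapping ranges. The 3 MiT/TFE factors are in neither sum.

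**Figure D1:**
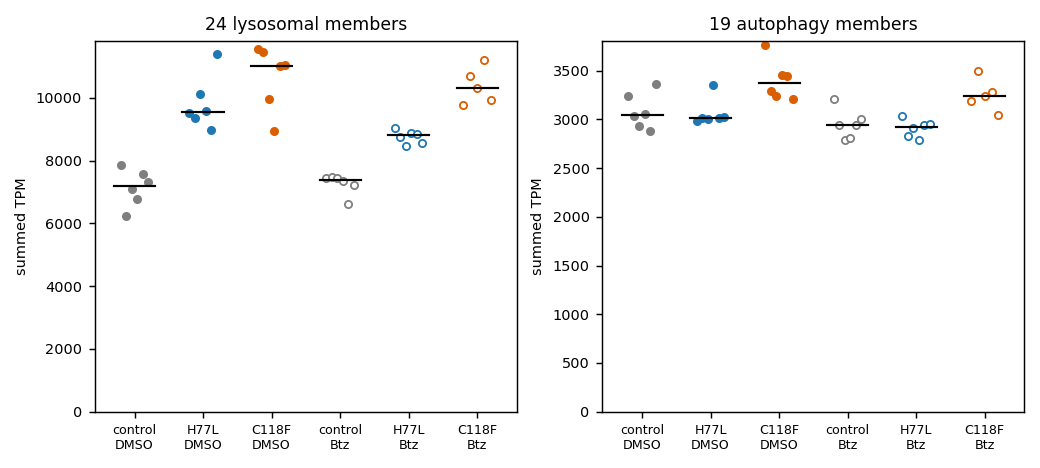
Summed TPM of the 24 lysosomal members (left) and the 19 autophagy members (right) in each mouse, by genotype and treatment (Btz, bortezomib); points are mice, bars are medians, and both axes start at 0. The lysosomal sums of both mutant lines lie above those of control mice under either treatment, and the autophagy sums overlap.

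Among the lysosomal proteases and their inhibitor, 6 of 7 tested members rose in each line, and they were the same 6. Cstb encodes cystatin B, a cytosolic inhibitor of cysteine cathepsins. Its level was 361, 417 and 495 TPM (lowest, median and highest) in control mice, 499, 593 and 873 TPM in H77L mice and 588, 767 and 837 TPM in C118F mice under DMSO. Every mutant mouse was above every control mouse. The difference was 0.53 ± 0.13 (log2, SE; adjusted p = 0.00472, limma) in H77L mice and 0.80 ± 0.12 (adjusted p = 2.1e-04, limma) in C118F mice. Ctsz, the carboxypeptidase cathepsin Z, was at 235, 248 and 302 TPM in control mice, 337, 407 and 481 TPM in H77L mice and 331, 411 and 437 TPM in C118F mice. Again the groups did not overlap, with differences of 0.66 ± 0.09 (adjusted p = 7.2e-05, limma) and 0.63 ± 0.10 (adjusted p = 2.1e-04, limma).

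The other cathepsins that rose did so by less than 1 log2 unit. Ctsa, a carboxypeptidase that also protects partner enzymes, differed by 0.50 and 0.66 in the H77L and C118F lines, the cysteine protease Ctsb by 0.52 and 0.64, the aspartic protease Ctsd by 0.27 and 0.34, and the aminopeptidase Ctsh by 0.40 and 0.54. Ctsd stayed called in 5 of 12 fits of the H77L line and 6 of 12 of the C118F line when each mouse in turn was left out. Ctsl, a cysteine protease and the cathepsin with the highest level in control mice, was not called under DMSO (0.03 ± 0.17 and 0.29 ± 0.21; adjusted p = 0.909 and 0.328, limma). Ctss, a cathepsin of antigen-presenting cells, never passed the filter of 1 TPM in all mice of a group. It was at 0, 1.39 and 72.2 TPM in control mice, 0, 0.416 and 2.36 TPM in H77L mice and 0, 0.057 and 8.09 TPM in C118F mice under DMSO. The value of 72.2 TPM belonged to control replicate 1, the mouse with the highest macrophage marker sum.

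Among the other hydrolases and their cofactors, Hexa had the largest difference of all members in both lines. Hexa (chr9:59446818-59474021) encodes the alpha subunit of beta-hexosaminidase A, which degrades GM2 ganglioside. Its level was 98, 123 and 141 TPM in control mice, 251, 295 and 372 TPM in H77L mice and 280.2, 302 and 388 TPM in C118F mice under DMSO. The lowest mutant mouse was well above the highest control mouse. The difference was 1.31 ± 0.11 or 2.48-fold (adjusted p = 6.1e-07, limma) in the H77L line and 1.35 ± 0.11 or 2.55-fold (adjusted p = 5.6e-07, limma) in the C118F line.

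Grn (chr11:102321141-102327874) encodes progranulin, the precursor of lysosomal granulins. Its level was 117, 139 and 179 TPM in control mice, 234, 257 and 294 TPM in H77L mice and 240.1, 264 and 341 TPM in C118F mice under DMSO. The groups did not overlap, and the difference was 0.85 ± 0.10 (adjusted p = 1.2e-05, limma) and 0.92 ± 0.12 (adjusted p = 4.2e-05, limma). Psap, the precursor of the saposins that present lipids to hydrolases, rose by 0.52 and 0.68 in the H77L and C118F lines. Gaa, the acid glucosidase that degrades glycogen, rose in the H77L line (0.62 ± 0.12; adjusted p = 6.8e-04, limma) and was not called in the C118F line (0.41 ± 0.20; adjusted p = 0.14, limma). Gla, the galactosidase whose loss causes Fabry disease, was called in neither line (0.19 ± 0.15 and -0.07 ± 0.25). A link between promoter elements and the changes of members was not tested.

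In the group of lysosomal membrane and lipid export, 3 of 6 members rose in each line. Lamp1 (chr8:13209121-13227360) was at 887, 1099 and 1296 TPM in control mice, 1531, 1645 and 1991 TPM in H77L mice and 1381, 1826 and 2077 TPM in C118F mice under DMSO. Every mutant mouse was above every control mouse, with differences of 0.64 ± 0.11 (adjusted p = 3.3e-04, limma) and 0.67 ± 0.13 (adjusted p = 0.00111, limma). Lamp2, its relative, which is required for fusion of autophagosomes and for chaperone-mediated autophagy, was at 294, 366 and 417 TPM, 438, 479 and 563 TPM, and 404, 510.1 and 644 TPM in the same order. The lowest C118F mouse overlapped the control mice and the H77L mice did not, and Lamp2 rose in both lines (0.45 ± 0.09 and 0.49 ± 0.12; adjusted p = 0.00138 and 0.00617, limma).

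The cholesterol transporter Npc1 rose in the H77L line alone (0.46 and 0.18 in the H77L and C118F lines), and Scarb2, the receptor that carries glucocerebrosidase to lysosomes, in the C118F line alone (0.25 and 0.42). The difference between the lines was called for neither gene (adjusted p = 0.931 or above for every member, limma). Npc2, which hands cholesterol to NPC1, differed by 0.00 and 0.14, and the calcium channel Mcoln1 by 0.15 and 0.25, both without a call.

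Of the 5 proton pump members, 4 rose in both lines. Atp6ap2 (chrX:12453960-12495037), an accessory subunit also known as the prorenin receptor, was at 229.6, 245 and 289.9 TPM in control mice, 427, 472 and 614 TPM in H77L mice and 393, 578 and 677 TPM in C118F mice under DMSO. No mutant mouse reached down to the control range, and the difference was 0.98 ± 0.10 (adjusted p = 3.0e-06, limma) and 1.14 ± 0.12 (adjusted p = 9.7e-06, limma). Atp6v1b2, a subunit of the ATP-splitting V1 head, was at 89, 93.7 and 97.8 TPM, 127, 151 and 204 TPM, and 139, 187 and 211 TPM. It rose without overlap by 0.70 ± 0.10 (adjusted p = 7.2e-05, limma) and 0.91 ± 0.11 (adjusted p = 2.3e-05, limma). Atp6v1a, the catalytic V1 subunit, rose by 0.46 and 0.59, and Atp6v0d1, of the membrane-bound V0 part, by 0.43 and 0.58. The accessory subunit Atp6ap1 was not called (-0.03 ± 0.08 and 0.04 ± 0.11).

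Of the transcription factors that drive lysosomal genes, Tfe3 was called and Tfeb and Mitf were not. Tfe3 was at 10.1, 14 and 16.4 TPM in control mice, 19.5, 22.3 and 29 TPM in H77L mice and 17.9, 23.6 and 34.1 TPM in C118F mice under DMSO. The groups did not overlap, with differences of 0.77 ± 0.13 (adjusted p = 3.5e-04, limma) and 0.79 ± 0.17 (adjusted p = 0.00248, limma). Tfeb was at 10.6, 14.2 and 19.7 TPM, 10.3, 12.1 and 16.4 TPM, and 6.28, 11.5 and 14.7 TPM, with overlapping groups and differences of -0.14 ± 0.16 and -0.29 ± 0.20. Mitf differed by -0.03 ± 0.18 and -0.12 ± 0.29. These factors are known to be controlled by their place in the cell, which mRNA does not show.

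**Figure D2:**
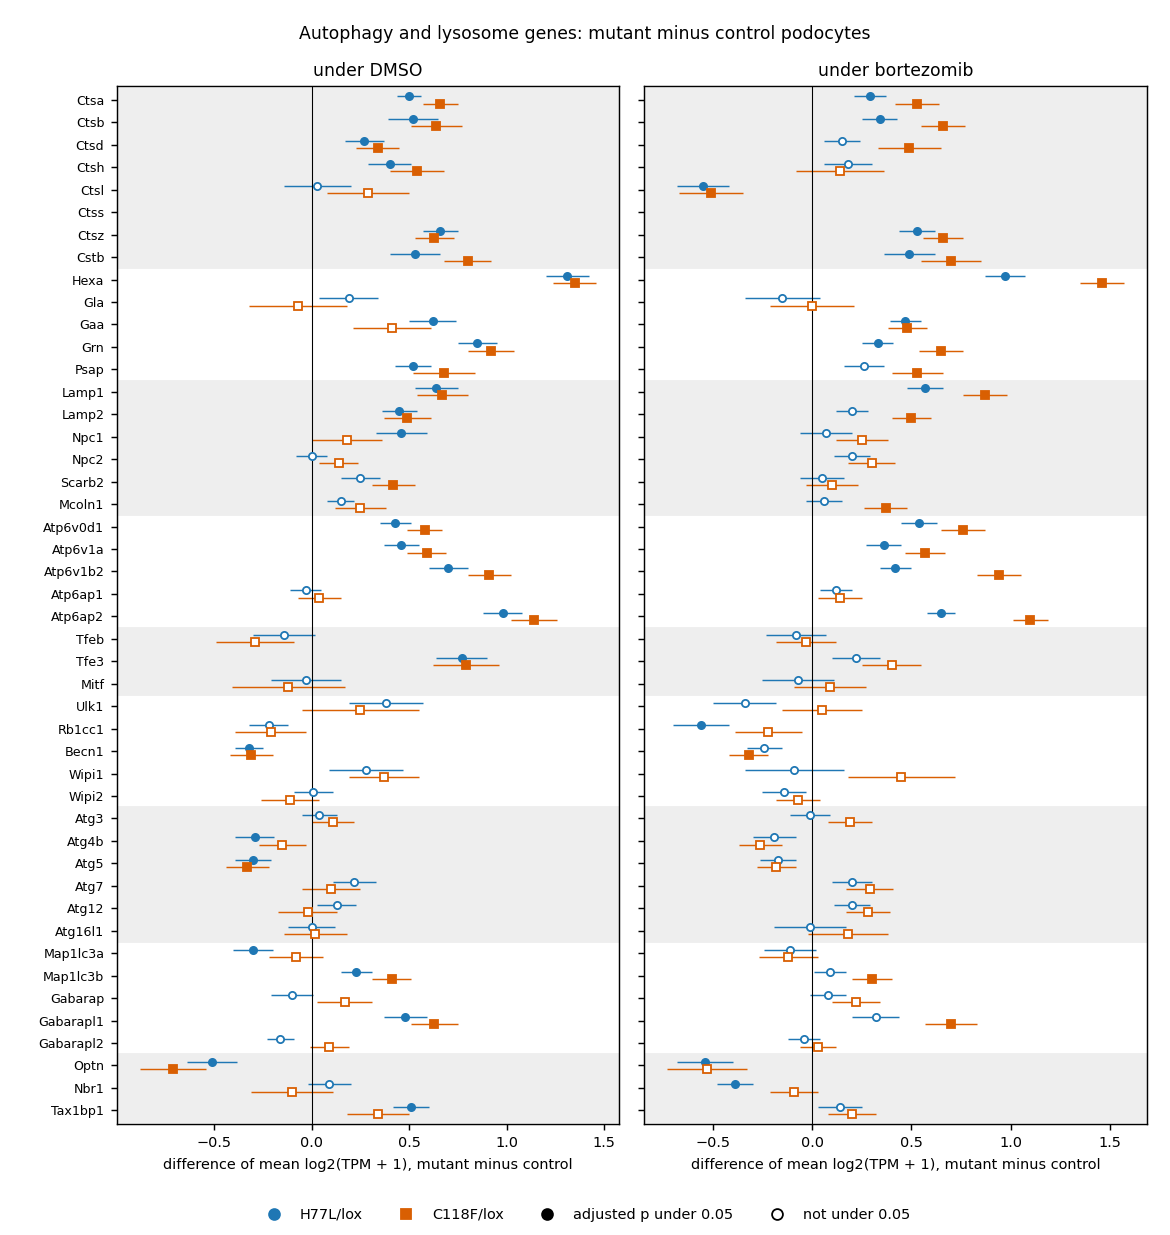
Difference of mean log2(TPM + 1) between mutant and control podocytes for each member, under DMSO (left) and bortezomib (right); points are the 2 lines, lines are standard errors, filled points have an adjusted p under 0.05 (limma), and shading separates the 9 roles from proteases at the top to cargo receptors at the bottom. Most lysosomal members lie right of 0, Optn lies left of it, and Ctss has no value.

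**Figure D3:**
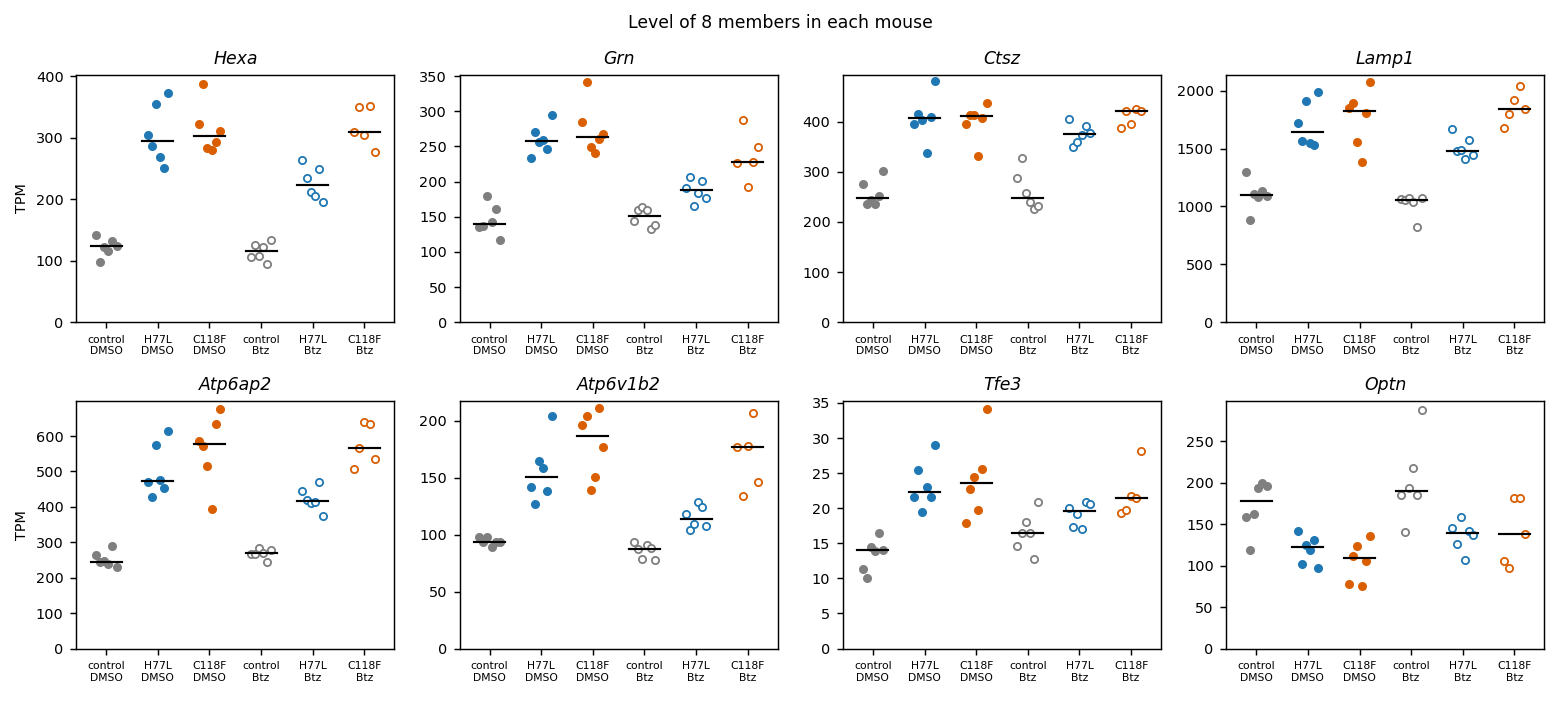
TPM of 8 members in each mouse of the 6 groups; points are mice, bars are medians, and each axis starts at 0. Hexa, Atp6ap2, Grn, Ctsz, Lamp1 and Atp6v1b2 of mutant mice lie above control mice under either treatment, Tfe3 overlaps under bortezomib, and Optn is lower in mutant mice with overlap.

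The autophagy members moved less and in both directions. Among the 5 genes of initiation and nucleation, none rose, and Becn1, which encodes Beclin 1 of the lipid kinase complex, fell by 0.32 in the H77L line (SE 0.07; adjusted p = 0.00251, limma) and by 0.31 in the C118F line (SE 0.11; adjusted p = 0.0468, limma). The call in the C118F line was kept in 2 of 12 fits that left out a mouse. Wipi1, which binds the lipid that this complex makes, was at 4.95, 6.93 and 8.32 TPM in control mice, 5.11, 9.03 and 10.9 TPM in H77L mice and 6.61, 9.5 and 11.1 TPM in C118F mice. Ulk1, the kinase that starts autophagy, was at 22.4, 36.5 and 46.5 TPM, 32.8, 44.7 and 65.1 TPM, and 14.4, 48.3 and 66.7 TPM in the same order. Both genes overlapped between groups and were not called (Wipi1 0.28 ± 0.19 and 0.37 ± 0.18, Ulk1 0.38 ± 0.19 and 0.25 ± 0.30). Rb1cc1, the scaffold FIP200 of the ULK1 complex, differed by -0.22 and -0.21 and Wipi2 by 0.01 and -0.11, without a call.

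Of the 6 conjugation genes, none rose. Atg5, which joins ATG12 in the enzyme that places ATG8 proteins on membranes, was at 85.5, 108 and 112 TPM in control mice, 74.4, 84.6 and 97.7 TPM in H77L mice and 65.5, 82.1 and 98.1 TPM in C118F mice. It fell with some overlap, by 0.30 in the H77L line (SE 0.09; adjusted p = 0.0149, limma) and by 0.33 in the C118F line (SE 0.11; adjusted p = 0.0385, limma), where the call was kept in 4 of 12 fits that left out a mouse. Atg4b, the protease that trims ATG8 proteins, was at 32.3, 41.3 and 44.9 TPM, 28.5, 33.2 and 36.2 TPM, and 30.8, 35.2 and 44.3 TPM. It fell in the H77L line (-0.29 ± 0.10; adjusted p = 0.0289, limma), in 7 of 12 fits that left out a mouse, and was not called in the C118F line (-0.15 ± 0.12; adjusted p = 0.379, limma). The remaining conjugation genes were not called: Atg7, the activating enzyme, differed by 0.22 and 0.10, Atg3, the transfer enzyme, by 0.04 and 0.11, Atg12 by 0.13 and -0.02 and Atg16l1 by -0.00 and 0.02.

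Within the ATG8 family, Gabarapl1 and Map1lc3b rose in both lines. Gabarapl1 was at 327, 369 and 482 TPM in control mice, 439, 535 and 598 TPM in H77L mice and 481, 567 and 688 TPM in C118F mice. The ranges overlapped at their ends, and the differences were 0.48 ± 0.11 (adjusted p = 0.00282, limma) and 0.63 ± 0.12 (adjusted p = 0.00121, limma). Map1lc3b, the LC3B gene, was at 169, 178 and 212 TPM, 199, 213 and 236 TPM, and 213, 243 and 302 TPM. It differed by 0.23 ± 0.08 (adjusted p = 0.0259, limma) with overlap in the H77L line, where the call was kept in 8 of 12 fits that left out a mouse, and by 0.41 ± 0.10 (adjusted p = 0.00679, limma) without overlap in the C118F line. Map1lc3a, the LC3A gene, fell in the H77L line (-0.30 ± 0.10; adjusted p = 0.0255, limma), in 9 of 12 fits that left out a mouse, and was not called in the C118F line (-0.08 ± 0.14). Gabarap differed by -0.10 and 0.17 and Gabarapl2 by -0.16 and 0.09, neither with a call.

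The cargo receptors went separate ways. Optn (chr2:5022703-5068945) encodes optineurin, a receptor for ubiquitinated cargo and damaged mitochondria. Its level was 118.40, 178 and 199 TPM in control mice, 96.9, 122 and 142 TPM in H77L mice and 75.5, 109 and 136 TPM in C118F mice. Most mutant mice were below control mice, with 1 low control mouse inside their range, and Optn fell by 0.51 (SE 0.13; adjusted p = 0.00615, limma) and by 0.71 (SE 0.17; adjusted p = 0.00539, limma). Tax1bp1, a receptor for ubiquitinated aggregates, was at 102, 107 and 118.02 TPM, 135, 155 and 182 TPM, and 92.1, 129 and 213 TPM. It rose without overlap in the H77L line (0.51 ± 0.09; adjusted p = 2.9e-04, limma) and was not called in the C118F line, whose mice spread over the control range (0.34 ± 0.16; adjusted p = 0.139, limma). Nbr1 differed by 0.09 and -0.10 without a call.

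Of the 46 members, 24 overlap a gene on the other strand, among them Hexa, Lamp1 and Grn, and whether the counting used strand is not stated. No member reached the stricter cutoffs of the study, an adjusted p under 0.001 together with an absolute log2 difference above 2. Here these were applied to limma on log2(TPM + 1), whereas the study applied them to DESeq2 with shrunken fold changes. The shares that follow are therefore not those of the study. At these cutoffs 1.62% of all genes were higher and 0.547% lower in the H77L line under DMSO, 1.63% and 0.633% in the C118F line under DMSO, 0.925% and 0.278% in the H77L line under bortezomib and 1.52% and 0.412% in the C118F line under bortezomib. By limma voom on reads recovered from the TPM values, 0 members reached them as well. When the mouse number entered the fit, the calls of Ctsb, Ctsd, Ctsh, Cstb, Lamp2, Npc1, Map1lc3b, Atg4b, Atg5 and Map1lc3a in the H77L line and of Ctsd, Scarb2, Becn1 and Atg5 in the C118F line were lost. Without control replicate 1, the mouse with the macrophage transcripts, 22 members were higher and 5 lower in the H77L line and 19 and 1 in the C118F line. Without C118F replicate 1, the mouse with the Ren1 transcripts, 20 were higher and 3 lower in the C118F line.

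The same comparison was made under bortezomib, with other mice. In H77L mice 12 of 45 members were higher than in control mice (26.7%) and 4 were lower (8.89%), where 12.5% of all genes were higher and 11.0% lower. In C118F mice 18 were higher (40%) and 2 were lower (4.44%), where 15.1% of all genes were higher and 12.4% lower. The median of the members was 0.12 and 0.28 (log2), against -0.01 and 0.00 over all genes. Without overlap between the mice, 11 members were higher and 1 lower in the H77L line, where 6.8% and 5.3% of all genes were. In the C118F line 13 were higher and 1 lower without overlap, where 9.01% and 6.74% of all genes were. Of the 21 members that were higher in the H77L line under DMSO, 12 were higher under bortezomib too (57.1%), where 46.4% of all genes higher under DMSO were so. Of the 19 in the C118F line, 16 were (84.2%), where 76% of all such genes were. The 11 members (24.4%, where 7.7% of all genes tested in all 4 were called so) higher in all 4 comparisons were Ctsa, Ctsb, Ctsz, Cstb, Hexa, Grn, Lamp1, Atp6v0d1, Atp6v1a, Atp6v1b2 and Atp6ap2.

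Hexa was at 95.1, 115 and 133 TPM in control mice under bortezomib and at 196, 223 and 264 TPM in H77L mice, and the 5 C118F mice had 277, 304, 309, 350.4 and 352 TPM. All 3 groups were apart, and the differences from control were 0.97 ± 0.10 (adjusted p = 2.5e-06, limma) and 1.46 ± 0.11 (adjusted p = 2.5e-07, limma). Atp6ap2 was at 244, 269 and 283 TPM, then 374, 417 and 469.8 TPM, and the C118F mice had 507, 535, 567, 634 and 639 TPM. These groups were apart as well, with differences of 0.65 ± 0.07 (adjusted p = 5.1e-06, limma) and 1.10 ± 0.09 (adjusted p = 6.6e-07, limma). Lamp1 was at 819.9, 1058 and 1076 TPM, then 1411, 1481 and 1666 TPM, and the C118F mice had 1676, 1803, 1840, 1917 and 2044 TPM. Here too no ranges overlapped, and the differences were 0.57 ± 0.09 (adjusted p = 1.4e-04, limma) and 0.87 ± 0.11 (adjusted p = 3.2e-05, limma).

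Atp6v1b2 was at 77.8, 87.9 and 93.7 TPM in control mice under bortezomib and at 104, 113 and 129 TPM in H77L mice, and the C118F mice had 134, 146, 177, 178 and 207 TPM. The differences were 0.42 ± 0.08 (adjusted p = 0.00111, limma) and 0.94 ± 0.11 (adjusted p = 2.8e-05, limma), and the 3 groups were apart. Ctsz was at 226, 249 and 328 TPM, then 350.2, 375 and 406 TPM, and the C118F mice had 388, 396, 421, 422 and 425 TPM. Both lines were above control mice (0.53 ± 0.09 and 0.66 ± 0.10), and they overlapped each other. Cstb was at 318, 390.0 and 623 TPM, then 537, 566 and 615 TPM, and the C118F mice had 588, 619, 659.9, 690.0 and 740.2 TPM. The highest control mouse lay above all H77L mice and inside the range of the C118F mice, and Cstb was called in both lines (0.49 ± 0.13 and 0.70 ± 0.15).

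Lamp2 was at 320.3, 351 and 429 TPM in control mice under bortezomib and at 367, 405 and 459.9 TPM in H77L mice, and the C118F mice had 455, 491, 503, 531 and 535 TPM. Only the C118F mice were apart from control mice, and the call was made there alone (0.50 ± 0.10; adjusted p = 0.00138, limma; in the H77L line 0.20 ± 0.08; adjusted p = 0.097, limma). Gabarapl1 was at 289, 338 and 474 TPM, then 367, 438 and 524 TPM, and the C118F mice had 468, 519, 588, 606 and 672 TPM. It was called in the C118F line (0.70 ± 0.13; adjusted p = 0.00105, limma) and not in the H77L line (0.32 ± 0.12; adjusted p = 0.0534, limma). Map1lc3b was at 147, 167 and 187 TPM, then 155, 181 and 187 TPM, and the C118F mice had 171, 195, 209, 209 and 247 TPM. It overlapped in both lines and was called in the C118F line (0.30 ± 0.10; adjusted p = 0.0422, limma), in 2 of 11 fits that left out a mouse.

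Tfe3 was at 12.7, 16.4 and 20.9 TPM in control mice under bortezomib and at 17.1, 19.6 and 20.9 TPM in H77L mice, and the C118F mice had 19.3, 19.8, 21.4, 21.7 and 28.2 TPM. The ranges overlapped and Tfe3 was called in neither line (0.22 ± 0.12 and 0.40 ± 0.15; adjusted p = 0.223 and 0.0551, limma). Tfeb was at 9.1, 13.6 and 15.2 TPM, then 9.34, 12 and 15.9 TPM, and the C118F mice had 10.8, 12.1, 12.4, 14.1 and 14.2 TPM, without a call. Optn was at 141, 189 and 288 TPM, then 107, 139 and 158 TPM, and the C118F mice had 96.7, 105, 138, 182 and 182 TPM. It was lower in the H77L line (-0.54 ± 0.14; adjusted p = 0.00914, limma), and the C118F mice overlapped the control mice (-0.53 ± 0.20; adjusted p = 0.056, limma).

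Ctsl was lower in both lines under bortezomib, and not called under DMSO. It was at 744, 889 and 1292 TPM in control mice and at 555, 639 and 732 TPM in H77L mice, without overlap, and it fell by 0.55 (SE 0.13; adjusted p = 0.00485, limma). In the C118F line it fell by 0.51 with overlap (SE 0.16; adjusted p = 0.0268, limma), and the call was kept in 7 of 11 fits that left out a mouse and lost with no filter on low values. The other members called lower were Rb1cc1 (-0.56) and the cargo receptor Nbr1 (-0.39) in the H77L line and Becn1 (-0.32) in the C118F line. Becn1 was at 41.5 to 58.6 TPM in control mice and at 36.8 to 40.9 TPM in C118F mice, without overlap, and its call was kept in 4 of 11 fits that left out a mouse. Mcoln1 was higher in the C118F line (0.37 ± 0.11), in 8 of 11 fits that left out a mouse, and Gaa in both lines (0.47 ± 0.08 and 0.48 ± 0.10). When the mouse number entered the fit, the calls of Mcoln1, Gaa, Becn1 and Ctsd in the C118F line under bortezomib were lost.

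For the remaining autophagy members under bortezomib, ranges overlapped between control and mutant mice. Atg5 was at 87.1, 94.1 and 106 TPM in control mice and at 70.9, 87.3 and 92.1 TPM in H77L mice, and the C118F mice had 70.5, 80, 86.8, 89.7 and 91.4 TPM. Atg4b was at 31.6, 43.4 and 47.5 TPM, then 30.4, 37.6 and 41 TPM, and the C118F mice had 33.6, 34.2, 34.4, 35.4 and 36.2 TPM. Neither gene was called. Tax1bp1 was at 120.1, 131 and 179 TPM, then 127, 157 and 167 TPM, and the C118F mice had 129.8, 142, 162, 169.9 and 177 TPM. Ulk1 was at 35.2, 40.1 and 70.3 TPM, then 28.2, 33.4 and 43.2 TPM, and the C118F mice had 31, 37.2, 48.6, 49 and 63.3 TPM. These 2 were not called either. Wipi1 was at 2.47, 5.87 and 10.4 TPM, then 3.45, 5.63 and 7.83 TPM, and the C118F mice had 6.16, 7.19, 8.48, 9.59 and 11.2 TPM, without a call. The lysosomal protease Ctss, which was not tested, was at 0, 0.238 and 0.935 TPM in control mice and at 0, 0 and 5.98 TPM in H77L mice, and the C118F mice had 0, 0, 0, 0.193 and 0.614 TPM.

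The next question was what bortezomib itself did to the members within a genotype. Blocking the proteasome is known to raise autophagy genes in many cells. In control mice 0 of 45 members were called in either direction, where 0% of all genes were called higher or lower by limma. At an unadjusted p under 0.05 there were 3 members (Gaa, Npc2 and Tax1bp1) among 923 of 10659 genes, 8.66%, and the lowest adjusted p of a member was 0.56. In C118F mice 0 members were called, where 0% of genes were called in either direction. Ctsl (-0.48 ± 0.22) was the 1 member with an unadjusted p under 0.05, where 5.86% of all genes had one. Limma voom called 0 members in both genotypes.

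In H77L mice bortezomib went with lower levels of many members, of which 1 passed the adjusted threshold. Of 45 members 36 had a negative difference and 9 a positive one, where 50.5% of all genes had a positive one. The median was -0.11 against 0.00 over all genes, and 16 members had an unadjusted p under 0.05, where 20% of all genes had one. Without overlap between the mice, 4 of 45 members were lower and 0 higher, where 1.16% of all genes were lower and 1.22% higher. Grn fell from 234, 257 and 294 TPM under DMSO to 165, 187 and 207 TPM under bortezomib, without overlap. The difference was -0.47 ± 0.07 (adjusted p = 0.0184, limma), and it was 1 of 45 members lower (2.22%) and 0 higher, where 0.740% of all genes were lower and 0.416% higher. The call was lost when H77L replicate 2, 3, 4 or 6 under bortezomib was left out, with the difference between -0.50 and -0.43 over all 12 such fits.

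Next to Grn stood Ctsa (-0.24 ± 0.06; adjusted p = 0.0532, limma), Map1lc3b (-0.28 ± 0.07; adjusted p = 0.0579, limma), Atp6v1b2 (-0.42 ± 0.10; adjusted p = 0.0593, limma) and Hexa (-0.42 ± 0.11; adjusted p = 0.0649, limma), which did not pass. In control mice Grn was at 117, 139 and 179 TPM under DMSO and at 132, 151 and 164 TPM under bortezomib. In C118F mice Grn was at 240.1, 264 and 341 TPM under DMSO and at 193, 227, 228, 249 and 287 TPM under bortezomib. Grn of both lines under bortezomib stayed above control mice under bortezomib (0.33 ± 0.08 and 0.65 ± 0.11; adjusted p = 0.00708 and 4.0e-04, limma). The podocyte marker sum of the H77L line was 6270 to 9130 TPM under DMSO and 8464 to 10815 TPM under bortezomib, the mesangial sum 600.3 to 979 TPM and 402 to 606 TPM, and the parietal sum 171 to 342 TPM and 146 to 182 TPM. Their part in these differences was not tested.

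**Figure D4:**
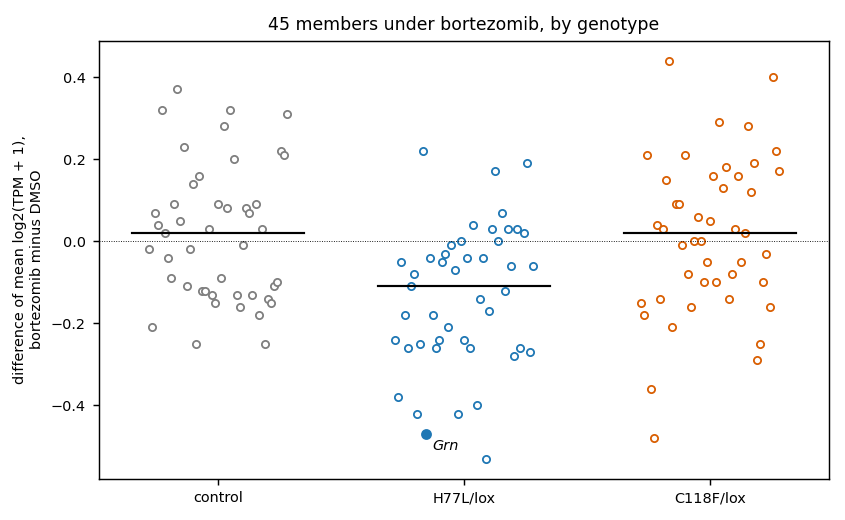
Difference of mean log2(TPM + 1) between bortezomib and DMSO for the 45 tested members in each genotype; each point is a member, bars are medians over members, and the filled point has an adjusted p under 0.05 (limma). The medians are 0.02 in control mice, -0.11 in H77L mice and 0.02 in C118F mice, and Grn is the member called.

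Whether bortezomib acted differently on the genotypes was tested as an interaction. For the response of the H77L line minus that of control mice 0 members were called, where 0% of genes were called higher or lower. An unadjusted p under 0.05 was found for 11 of 45 members, where 18.2% of all genes had one. The lowest adjusted p was that of Grn (-0.52 ± 0.12; adjusted p = 0.0814, limma), with Nbr1 (-0.48 ± 0.15) and Tfe3 (-0.55 ± 0.17) next. For the response of the C118F line minus that of control mice 0 members were called, where 0% of genes were called. Ctsl (-0.80 ± 0.28; adjusted p = 0.835, limma) was the 1 member with an unadjusted p under 0.05, where 5% of all genes had one. For the response of the H77L line minus that of the C118F line 0 members were called, where 0% of genes were called. An unadjusted p under 0.05 was found for 3 members, where 7.6% of all genes had one, and the lowest adjusted p of a member was 0.65 (limma). Limma voom called 0 members in all 3 tests. A difference between genotypes in the response of a member was therefore not shown.

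The lines were also compared with each other. Under DMSO 0 of 45 members were called between C118F and H77L mice by limma or by limma voom, where 0% of genes were called higher or lower. At an unadjusted p under 0.05 stood 2 members, Gabarap (0.27 ± 0.12) and Gabarapl2 (0.25 ± 0.10), against 3.85% of all genes, and members ranged from -0.27 to 0.27.

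Under bortezomib 3 of 45 members (6.67%) were higher in the C118F line than in the H77L line and 0 were lower, where 0.713% of all genes were higher and 0.259% lower. These were Hexa (0.49 ± 0.10; adjusted p = 0.0273, limma), Atp6v1b2 (0.53 ± 0.11; adjusted p = 0.0329, limma) and Atp6ap2 (0.45 ± 0.09; adjusted p = 0.0238, limma), and for each the values given above did not overlap between the lines. Without overlap, 5 of 45 members were higher and 0 lower, where 1.22% of all genes were higher and 0.889% lower. Of 45 members 40 had a positive difference, where 54.3% of all genes had one, and the median was 0.18 against 0.02. The 3 calls were all lost without H77L replicate 2, 3, 4 or 6 or C118F replicate 3 or 4 under bortezomib, and 6 members were called without C118F replicate 1. This comparison shares its H77L mice under bortezomib with the comparison of bortezomib and DMSO above, so the 2 are not independent.

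Other genes of the pathway, 202 of the 204 listed being in the table, were counted in 9 lists beside the members. In the H77L line under DMSO 63 of 182 tested were higher and 22 lower, where 22.4% of all genes were higher and 22.4% lower, with a median of 0.19 against -0.01 over all genes. In the C118F line 48 of 183 were higher and 12 lower, where 13.7% of all genes were higher and 16.6% lower, with a median of 0.14 against -0.06. In both lines 41 were higher and 11 lower, where 12.4% and 14.6% of all genes were. Among other lysosomal hydrolases 17 of 29 were higher and 3 lower in the H77L line and 13 and 1 in the C118F line. Among other autophagy core genes 7 of 25 were higher and 3 lower in the H77L line and 1 and 3 in the C118F line, and the share higher in the H77L line is near that of all genes. The lists were made with earlier results of these data known, and the counts describe them.

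**Figure D5:**
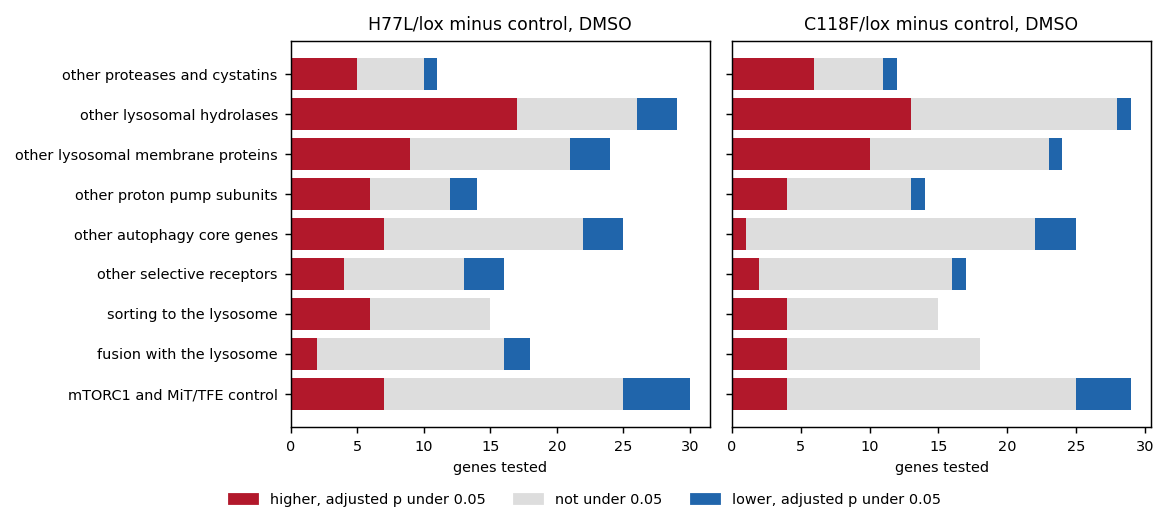
Number of tested genes in 9 lists of other lysosome and autophagy genes that were higher, not called or lower (adjusted p under 0.05, limma) in H77L mice (left) and C118F mice (right) against control mice under DMSO. The list of other lysosomal hydrolases has the most genes called higher, 17 of 29 and 13 of 29.

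From each list, up to 2 genes in each direction with the largest mean difference are given, among those called alike in both lines. Of the hydrolases, Galns, which degrades keratan sulphate, rose from a median of 19.5 TPM in control mice to 83.9 and 88.6 TPM in the H77L and C118F lines (2.12 ± 0.13 and 2.08 ± 0.17), and the arylsulfatase Arsb from 35.6 to 87.1 and 80.8 TPM (1.40 and 1.22). Galc, which degrades galactosylceramide, fell from 81.1 to 50.7 and 50.1 TPM (-0.67 and -0.71). Of the proteases and cystatins, the carboxypeptidase Scpep1 rose from 56.5 to 176 and 201 TPM (1.54 and 1.78) and cystatin C, Cst3, from 1631 to 4190 and 5731 TPM (1.41 and 1.72), while cathepsin O, Ctso, fell from 146 to 116 and 117 TPM (-0.35 and -0.30).

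Of the membrane proteins, the tetraspanin Cd63 rose from 214 to 963 and 1237 TPM (2.14 and 2.53) and the iron transporter Slc11a2 from 21.1 to 38.2 and 43.7 TPM (0.98 and 1.08), while the acetyltransferase Hgsnat fell (-0.27 and -0.37). Of the proton pump, Atp6v1d (0.48 and 0.60) and Atp6v0b (0.30 and 0.58) rose and Atp6v0e fell from 389 to 243 and 294 TPM (-0.69 and -0.45). Of the autophagy core genes, Sqstm1, the cargo receptor p62, rose from 1229 to 2003 and 1939 TPM (0.70 and 0.68), and Atg10 (-0.50 and -0.49) and Atg4d (-0.49 and -0.57) fell. Of other receptors, Retreg1, a receptor for autophagy of the endoplasmic reticulum, rose from 94.8 to 359 and 467 TPM (2.00 ± 0.13 and 2.26 ± 0.19), and Fkbp8, a receptor for mitochondria, fell from 174 to 116 and 115 TPM (-0.65 and -0.55).

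Of the genes for sorting to the lysosome, the mannose 6-phosphate receptor Igf2r rose from 25.5 to 83.3 and 74.6 TPM (1.69 and 1.46) and the retromer subunit Vps35 from 129 to 186 and 182 TPM (0.56 and 0.49). Of the fusion genes, Rab7 rose (0.26 and 0.28). Of the genes that control mTORC1 and the MiT/TFE factors, Rragd, the Rag GTPase D, rose from 6.45 to 34.3 and 33.6 TPM (2.32 ± 0.18 and 2.31 ± 0.21) and Fnip1 from 13.8 to 36.5 and 34.5 TPM (1.38 and 1.36). Nprl2, of the GATOR complex that restrains mTORC1, fell from 55.1 to 32.8 and 37 TPM (-0.75 and -0.55), and the Ragulator subunit Lamtor4 fell from 194 to 121 and 141 TPM (-0.69 and -0.51).

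In the H77L line bortezomib went with lower Arsb (-0.68 ± 0.14; adjusted p = 0.0361, limma), Cd63 (-0.49 ± 0.11; adjusted p = 0.0437, limma), Retreg1 (-0.69 ± 0.13; adjusted p = 0.0315, limma) and Rragd (-0.83 ± 0.17; adjusted p = 0.0352, limma), 4 of 183 pathway genes tested, and 0 were higher, where 0.740% of all genes were lower and 0.416% higher. Between the lines under bortezomib 5 of 183 were higher in C118F mice, Cd63, Slc11a2, Atp6v0b, Retreg1 and Rragd, and 0 were lower, where 0.713% of all genes were higher and 0.259% lower. In control mice 0 of 180 pathway genes were called for bortezomib.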

How the data were processed

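Podocytes of 35 mice were sequenced as polyA RNA, with 1 library per mouse, and replicate numbers follow the order of deposition. Per the labels and the study's methods, the authors trimmed reads with Trim Galore 0.6.7, aligned them to GRCm39 with STAR, assessed PCR duplication with Picard and counted reads per gene with featureCounts 1.6.3. The deposited values are TPM, which the authors made from these counts; how was not stated, nor whether strand was used. The number of sample columns left unused was 0.

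TPM values were analysed as log2(TPM + 1) in limma 3.58.1 (R 4.3.3), in a separate fit for each comparison over the mice of its groups, with the Benjamini-Hochberg adjustment over all genes that passed 1 TPM in every mouse of at least 1 group. A fold on this scale understates the change of low genes. Python 3.11.15 was used for the other steps. The low values are whole multiples of a step, from which whole reads were recovered for 23932 of 23943 detected genes (99.95%, tolerance 0.001). Limma voom on these reads was added after seeing the data. Precision is limited by the number of mice and, in the library with the lowest depth, Lmx1b C118F/lox replicate 2 under bortezomib, by 5267726 reads (median of all mice 19163979).

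In a test on simulated data for the H77L line against control mice under DMSO, over 10927 genes, 65% of 100 genes changed by 0.5 and 99% of 100 genes changed by 1 (log2) were recovered, and 6.82% of calls were on unchanged genes. The simulation gave every gene the same dispersion and changed far fewer genes than were called in the data, so these rates need not hold for the members.

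The members and the lists were chosen with earlier results of these data known. The members described with values were, in each of the 9 roles, the 2 with the largest mean absolute difference in both lines under DMSO, up to 8 members called in a comparison of treatments or lines, and any member that could not be tested. Alternatives were no filter on low values, another pseudocount, another scaling between mice, 1 fit for all mice, the mouse number as a covariate and leaving out each mouse in turn. A gene withheld from this work was left out of the podocyte markers and is not reported here.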

Additional observations from a re-analysis of the deposited data

Results flagged for a closer look

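Of 114 groups of values for the members described in detail, 9 had a highest or lowest mouse whose gap to its neighbour exceeded the 95% critical value of Dixon's test, and chance gives about 1 in 20. Among control mice under bortezomib, Lamp1 was lowest in replicate 5 (819.9 TPM), while replicate 6 had the highest Ulk1 (70.3 TPM), the highest Tax1bp1 (179 TPM) and the lowest Atg4b (31.6 TPM). Among Lmx1b C118F/lox mice under DMSO, Ctsz was lowest in replicate 4 (331 TPM) and Tfeb in replicate 1 (6.28 TPM), the mouse with the highest Ren1. Among Lmx1b H77L/lox mice, Cstb was highest in replicate 6 under DMSO (873 TPM), Map1lc3b was lowest in replicate 3 under bortezomib (155 TPM), and Ctss was highest in replicate 5 under bortezomib (5.98 TPM).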

How the results depend on the processing

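No result changed direction in any setting. With the mouse number as a covariate, 14 members were higher and 2 lower in the H77L line under DMSO, 4 were lower under bortezomib than under DMSO in the H77L line, and 0 were higher in the C118F than in the H77L line under bortezomib; mouse numbers run with the groups. With no filter on low values, 1 member was lower in the C118F line under DMSO, 1 under bortezomib, 0 were lower for bortezomib in the H77L line, and 0 were higher between the lines under bortezomib. In the C118F line under DMSO, 1 member was lower with median-of-ratios scaling and 1 by limma voom. Higher calls were lost as well. Limma voom lost those of Ctsd and Map1lc3b in the H77L line under DMSO. With no filter, Ctsd was lost in the H77L line under DMSO and in the C118F line under either treatment. Map1lc3b in the C118F line under bortezomib was lost with no filter, with median-of-ratios scaling and by limma voom. In 1 fit over all 35 mice, 19 members were higher and 4 lower in the H77L line under DMSO, and the calls of Ctsd, Ctsh and Map1lc3a there, of Nbr1 in the H77L line under bortezomib and of Atp6ap2 between the lines were lost. The cause was not tested.

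Leaving out each mouse in turn gave 19 to 22 higher and 3 to 5 lower members in the H77L line and 18 to 21 and 1 to 3 in the C118F line under DMSO. Under bortezomib it gave 12 to 13 and 4 to 6, and 15 to 18 and 1 to 3. It gave 0 to 3 lower members for bortezomib in the H77L line, 0 to 6 higher members between the lines under bortezomib, and 0 to 2 lower members for the response of the H77L line minus that of control mice. Without Lmx1b C118F/lox replicate 2 under bortezomib, the library with the lowest depth, 15 members were higher and 2 lower than in control mice. Of the 88 calls of single members, 46 fits under other settings and 97 fits without a mouse lost the call, against 482 and 936 that kept it. No paired analysis was possible because replicate numbers only name the mice.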
